A study of Sus scrofa with 12 samples.

Results

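TNNI1, MYL4 and MYH3 encode muscle isoforms of the sarcomere that are best known from fetal, embryonic or atrial muscle, and they were examined here as 3 of the 516 genes in the only table analysed for this pig heart RNA-seq study. The 3 rows were matched by gene symbol. They were chosen on the contrast itself: the authors' table lists genes with an unadjusted p under 0.05 between pressure overload and control, and these 3 were then picked from it as sarcomere isoforms that were all lower in pressure overload. The size and direction of that difference are therefore given as a description, with no test. The authors' deposited table gives TNNI1 an unadjusted p of 1.95e-06, MYL4 of 0.00882 and MYH3 of 0.00470, with adjusted p of 0.0298, 1 and 0.861 for the same genes, so that only TNNI1 passed an adjusted threshold of 0.05 there. The authors listed 375 genes as lower out of 15235 tested genes, the number implied by their adjusted p-values, which is 2.46%; all 3 genes are among the 375 by choice.

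The pressure overload group comprised 6 libraries from pigs in which a cuff on the ascending aorta was tightened step by step, with tissue studied after 5 weeks. The referent control group comprised 6 libraries from pigs matched for age and weight. The series text counts 9 pigs with pressure overload and 6 controls, and the labels give neither breed, sex nor age. The labels carry the same treatment text for both groups and name the tissue only as heart without a chamber. They do not state that each library came from a separate pig, so the units of the tests below are libraries and not pigs.

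The sarcomere is the contractile unit of striated muscle, in which myosin heads of the thick filament pull on actin of the thin filament. Troponin I holds the thin filament off until calcium binds the troponin complex. Each myosin head carries light chains that stabilise its lever arm. Many of these proteins come in isoforms that change with development and differ between atrium, ventricle and skeletal muscle, and a return of fetal isoforms is a widely described feature of hypertrophied heart muscle.

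Levels are given as CPM, the read count of a gene scaled to a fixed library size. The library sizes recovered from the steps between CPM values ranged from 24.3 to 31.9 M reads in pressure overload and from 19.5 to 30.2 M reads in controls. If the authors rescaled the libraries, these are the rescaled sizes and not the sequenced depth. The sources used here do not say whether they did. Pairwise correlations between libraries over the 516 genes ranged from 0.786 to 0.971, and no libraries held identical values. In tissue RNA, fewer cells of a type and less RNA per cell cannot be told apart.

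TNNI1, the slow skeletal troponin I, is the troponin I of the fetal heart and is replaced after birth by the cardiac isoform TNNI3. In pressure overload, replicates 1 to 6 had 5.15, 2.66, 2.45, 3.87, 4.77 and 2.06 CPM of TNNI1. In controls, replicates 1 to 6 had 11.5, 36.5, 58.6, 9.41, 7.12 and 34.7 CPM. Every pressure overload library was below every control library, and the controls themselves separated into 3 libraries at 34.7 CPM or above and 3 at 11.5 CPM or below. The means were 3.49 ± 1.29 CPM in pressure overload and 26.3 ± 20.4 CPM in controls (SD, n = 6 each), which is 7.53-fold lower in pressure overload. Its log2 fold change of -2.87 in the authors' deposited table was the second lowest of all 516 genes. The difference between the means of log2(CPM + 1), a scale that damps the changes of weakly expressed genes and of single high libraries, was -2.27 ± 0.43 (SE, limma). This SE, like the other limma SEs below, draws the variance of a gene toward that of the other genes fitted. Those genes come from a list selected for this contrast, so the SE may be too small.

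MYL4 is the essential myosin light chain of adult atrium and of embryonic heart and skeletal muscle. In pressure overload, replicates 1 to 6 had 8.92, 6.57, 4.76, 17.0, 13.1 and 5.75 CPM of MYL4. In controls, replicates 1 to 6 had 29.4, 40.0, 12.9, 25.0, 13.2 and 28.7 CPM. The groups overlapped: pressure overload replicates 4 and 5 reached the level of control replicates 3 and 5, while the other 4 libraries of each group did not overlap. The means were 9.35 ± 4.78 CPM in pressure overload and 24.9 ± 10.4 CPM in controls (SD, n = 6 each), or 2.66-fold lower in pressure overload. The difference on the log2(CPM + 1) scale was -1.33 ± 0.32 (SE, limma).

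MYH3 is the embryonic myosin heavy chain, the motor protein of developing skeletal muscle. In pressure overload, replicates 1 to 6 had 2.69, 3.58, 2.59, 2.63, 1.76 and 1.73 CPM of MYH3. In controls, replicates 1 to 6 had 6.38, 3.58, 4.19, 4.64, 10.6 and 5.15 CPM. Apart from replicate 2 of each group, at 3.583 CPM in pressure overload and 3.576 CPM in control, the groups were separate, and control replicate 5 stood highest. The sample title of control replicate 5 begins with V, whereas those of all other libraries begin with P. The labels used here give no reason for this. The means were 2.50 ± 0.691 CPM in pressure overload and 5.76 ± 2.57 CPM in controls (SD, n = 6 each), or 2.31-fold lower in pressure overload and 1.92-fold lower without control replicate 5. The difference on the log2(CPM + 1) scale was -0.90 ± 0.24 (SE, limma). MYH3 belongs to a family of skeletal and cardiac myosin heavy chains with closely related sequences, and how reads that map to several of them were counted is not stated in the sources used here. Its counts may therefore be uncertain.

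**Figure D1:**
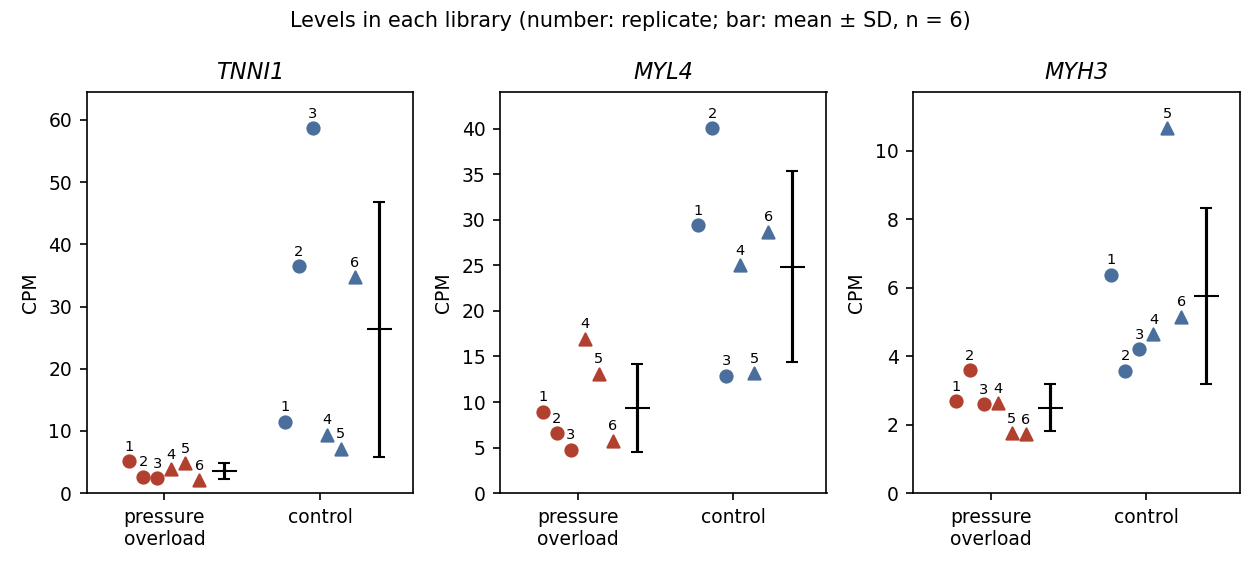
CPM of TNNI1, MYL4 and MYH3 in each library, with pressure overload left of control in each panel, circles for replicates 1 to 3, triangles for replicates 4 to 6, and black bars for the mean ± SD (n = 6). For TNNI1 all pressure overload libraries lie at or below 5.15 CPM and all controls at or above 7.12 CPM, whereas the groups overlap for MYL4 and, by replicate 2 of each group, for MYH3.

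Complete separation of the groups was thus seen for 1 of the 3 genes. Of the 516 listed genes, 39 had every pressure overload library below every control library, or 7.56%, on a list that was itself selected for this difference. In the authors' deposited table all 3 genes had log2 fold changes of -1 or below, at -2.87 for TNNI1, -1.40 for MYL4 and -1.17 for MYH3, against 34 of the 516 genes (6.59%) and a median of -0.51 over the 375 lower genes. In order from the lowest fold change, the 3 genes stood at positions 2, 13 and 24 of 516. These counts come from the contrast on which the genes were chosen.

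**Figure D2:**
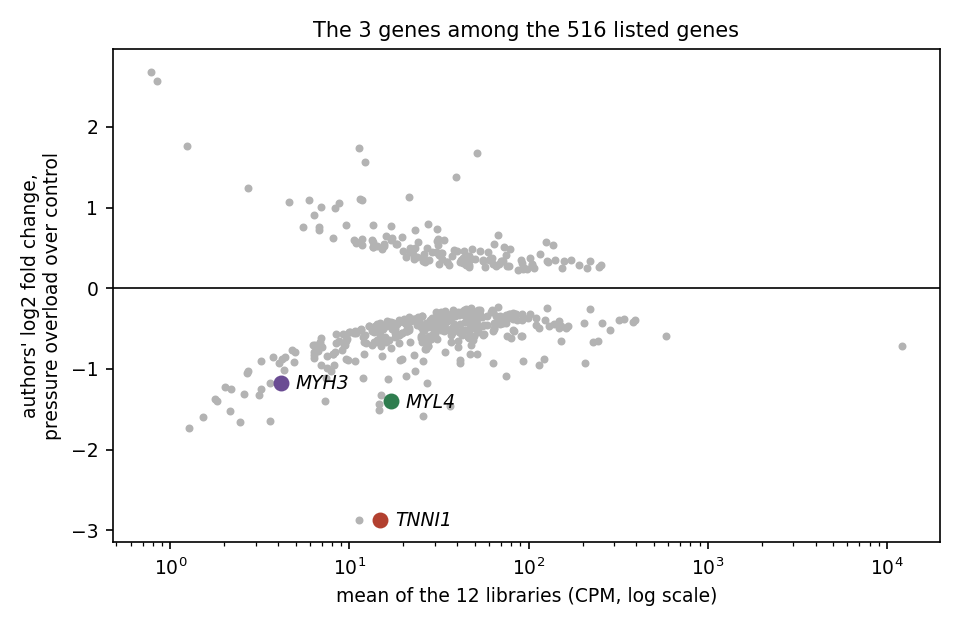
The authors' log2 fold change (pressure overload over control) of the 516 listed genes against the mean CPM of the 12 libraries on a log scale, with the 3 genes coloured. TNNI1 lies at -2.87 and MYL4 and MYH3 lie at -1.40 and -1.17, among the lower values of the list.

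The spread between libraries exceeded the counting error for all 3 genes. TNNI1 rested on 50 to 152 reads per library in pressure overload and on 200 to 1146 reads in controls, MYL4 on 136 to 438 reads and 252 to 1108 reads in the same groups, and MYH3 on 42 to 97 reads and 82 to 299 reads. Every value of the 3 genes was a whole number of reads within 0.02 reads. All 12 values of TNNI1 and all 12 of MYL4 were even numbers, as were 9 of 12 for MYH3, and between 79.0% and 84.8% of the whole values in each library were even. Counting both ends of a fragment separately would give such numbers, but the sources used here do not say whether this was done. If each fragment was counted as 2 reads, counting error alone would give an SD of 0.505 CPM in pressure overload and 1.51 CPM in controls for TNNI1, 0.828 and 1.41 CPM for MYL4, and 0.430 and 0.679 CPM for MYH3. The observed SDs of 1.29 and 20.4 CPM, of 4.78 and 10.4 CPM and of 0.691 and 2.57 CPM were larger in each case, least so for MYH3 in pressure overload.

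The spread between libraries differed among the 3 genes. On the log2(CPM + 1) scale the SD of TNNI1 was 0.42 in pressure overload and 1.18 in controls, and the control value was the fourth widest of the 512 genes with at least 1 CPM in at least 6 libraries. That of MYL4 was 0.64 in both groups, position 22 in pressure overload and 42 in controls. That of MYH3 was 0.28 in pressure overload and 0.48 in controls, positions 264 and 84. The median gene had an SD of 0.29 in pressure overload and 0.28 in controls. TNNI1 spanned a 2.51-fold range in pressure overload and an 8.23-fold range in controls. Whether the spreads differ between the groups was not tested.

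The replicate numbers fall into 1 to 3 and 4 to 6, with a gap in the sample numbers between them, and the differences were recomputed within each set of numbers. The labels do not call these sets batches. For TNNI1 the groups did not overlap in either set. It averaged 3.57 ± 1.38 CPM in pressure overload and 17.1 ± 15.3 CPM in controls among replicates 4 to 6, and 3.42 ± 1.504 and 35.5 ± 23.6 CPM among replicates 1 to 3 (SD, n = 3 each). MYL4 averaged 11.9 ± 5.70 CPM in pressure overload and 22.3 ± 8.11 CPM in controls among replicates 4 to 6, where the groups overlapped. Among replicates 1 to 3 it averaged 6.75 ± 2.09 and 27.4 ± 13.7 CPM, with no overlap. MYH3 showed the reverse order, with 2.04 ± 0.515 CPM in pressure overload and 6.81 ± 3.33 CPM in controls without overlap among replicates 4 to 6, and 2.95 ± 0.547 and 4.72 ± 1.47 CPM with overlap among replicates 1 to 3. Pressure overload was thus lower by a factor of 4.79 among replicates 4 to 6 and 10.4 among replicates 1 to 3 for TNNI1, of 1.87 and 4.06 for MYL4, and of 3.34 and 1.60 for MYH3.

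None of these differences between the sets passed its test. The log2 difference among replicates 4 to 6 minus that among replicates 1 to 3 was 1.12 ± 0.83 for TNNI1, 0.88 ± 0.62 for MYL4 and -0.79 ± 0.46 for MYH3 (SE), with adjusted p = 0.376, 0.351 and 0.262 in limma's interaction test over 512 genes (two-sided, Benjamini-Hochberg). A positive value means a smaller gap between pressure overload and control in replicates 4 to 6. No gene passed an adjusted p of 0.05 (0%), although 127 of 512 had an unadjusted p under 0.05. That is more than this threshold would give if no gene differed, so the test does not show that the sets agree. The smallest adjusted p was 0.0688, and 6 genes passed when control replicate 4 was left out and 1 when pressure overload replicate 6 was left out. Across both groups, the level in replicates 4 to 6 minus that in replicates 1 to 3 was -0.51 ± 0.43 for TNNI1, 0.22 ± 0.32 for MYL4 and 0.0087 ± 0.25 for MYH3 on the log2(CPM + 1) scale (SE; limma adjusted p = 0.854, 0.988 and 0.988). Here too no gene passed (0%), with 39 at an unadjusted p under 0.05.

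**Figure D3:**
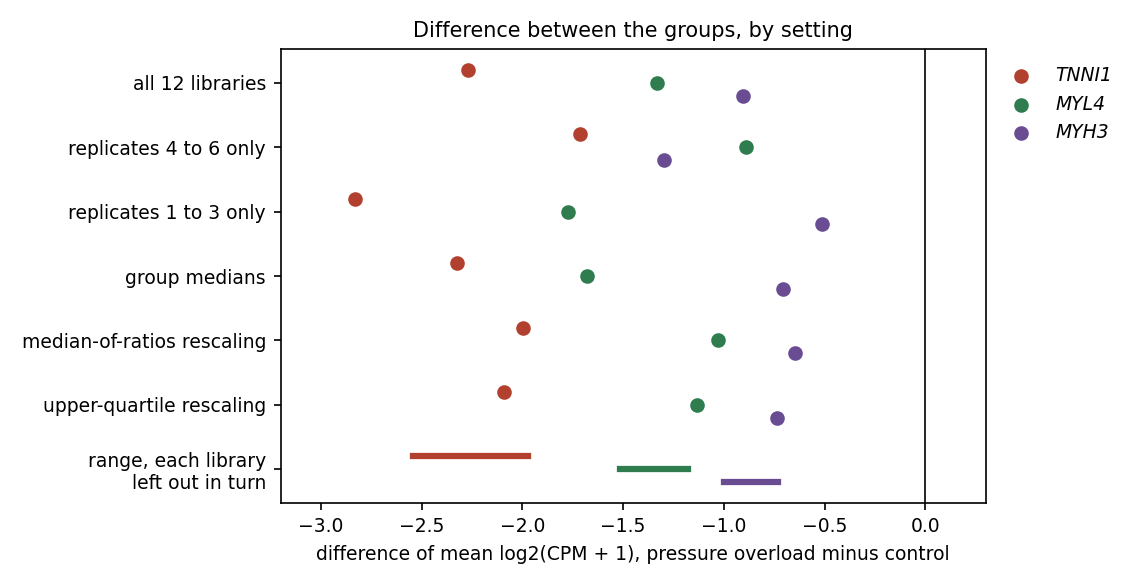
Difference of mean log2(CPM + 1), pressure overload minus control, for the 3 genes with all 12 libraries, within replicates 4 to 6 and within 1 to 3, with group medians, after 2 rescalings of the libraries, and as the range when each library is left out in turn (bars). All values lie below 0; TNNI1 and MYL4 are at -1.71 and -0.89 among replicates 4 to 6 and at -2.83 and -1.77 among replicates 1 to 3, and MYH3 is at -1.30 and -0.51.

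No relation between the levels of the 3 genes within a group passed its test, over 6 relations. In pressure overload TNNI1 and MYL4 had Pearson r = 0.74 (exact permutation p = 0.125) and Spearman rho = 0.71 (exact permutation p = 0.136; n = 6, two-sided), with adjusted p = 0.375 and 0.408 by permutation, and r was 0.88 without replicates 1 and 6, the libraries farthest from the TNNI1 median. In controls the same genes had r = 0.10 (exact permutation p = 0.814) and rho = 0.09 (exact permutation p = 0.919, n = 6), and r was 0.70 without replicates 3 and 5. Control replicate 3 held the highest TNNI1 level of the study, 58.6 CPM, and the lowest MYL4 level among controls, 12.9 CPM. TNNI1 and MYH3 had r = -0.72 in controls (exact permutation p = 0.075) and rho = -0.77 (exact permutation p = 0.103; adjusted p = 0.375 and 0.408; n = 6), and r was -0.52 without replicates 3 and 5. Control replicate 5 held the lowest TNNI1 and the highest MYH3 of the control group. In pressure overload TNNI1 and MYH3 had r = -0.03 and rho = 0.43, which differ in sign, and r was -0.76 without replicates 1 and 6. MYL4 and MYH3 had r = -0.13 and rho = 0.20 in pressure overload, with r = 0.27 without replicates 4 and 5, and r = -0.50 and rho = -0.20 in controls, with r = -0.60 without replicates 3 and 5. The unadjusted exact permutation p of these 3 relations was 0.339 or above for r and 0.419 or above for rho (n = 6 each).

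Among the other listed genes, those most like each of the 3 were found by the correlation of log2(CPM + 1) over the 12 libraries after each group mean was subtracted, so that the difference between the groups plays no part. These correlations are descriptions of 12 libraries of unequal recovered size, and the named genes are the top of 515. Over those 515 genes r ranged from -0.79 to 0.74 for TNNI1, from -0.83 to 0.82 for MYL4 and from -0.79 to 0.93 for MYH3. For TNNI1, r was above 0.7 for 1 gene and below -0.7 for 4. For MYL4 these numbers were 6 and 8, and for MYH3 they were 22 and 7. For MYL4 the closest genes were SLC9A2, a sodium-proton exchanger (r = 0.82), and ETV1, an ETS-family transcription factor known in the mouse from fast-conducting atrial and Purkinje cardiomyocytes (r = 0.81). SLC9A2 was near the floor, with 8 to 32 reads per library in pressure overload and 10 reads in each of control replicates 3 and 5. It did not meet the filter of 1 CPM in at least 6 libraries, which was not applied to these correlations. Next came SLC35F5 (0.77), the coatomer subunit COPB2 (0.74) and the mitochondrial enzyme GLUD1 (0.73). These 3 were higher in pressure overload, opposite to MYL4, with log2 fold changes of 0.41, 0.28 and 0.25 in the authors' deposited table. SLC9A2 and ETV1 were lower, at -1.59 and -0.92. ETV1 followed MYL4 closely in the controls (r = 0.98) and less so in pressure overload (r = 0.61), and leaving out any single library gave r of 0.77 to 0.86. Control replicates 3 and 5, the lowest controls for MYL4, were also the lowest for ETV1, at 31.7 and 37.1 CPM against 56.5 to 71.5 CPM in the other 4 controls.

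For MYH3 the closest genes were the DNA helicase RECQL5 (r = 0.93), SAPCD1 (0.85), the mRNA export factor THOC1 (0.84), the endothelial diaphragm protein PLVAP (0.80) and the RNA helicase DHX34 (0.79). PLVAP was higher in pressure overload, opposite to MYH3, with a log2 fold change of 0.42 in the authors' deposited table. RECQL5, SAPCD1, THOC1 and DHX34 were lower there. Each of the 5 correlations was lowest without control replicate 5, between 0.61 for DHX34 and 0.83 for RECQL5. RECQL5 had 26.5 CPM in that library and 15.03 to 19.4 CPM in the other controls. For TNNI1 the closest genes were PLA2G4A, a phospholipase that releases arachidonic acid (r = 0.74), the amino acid transporter SLC7A2 (0.67), the chromatin factors ARID5B (0.66) and KAT6B (0.62), and the phosphatase DUSP1 (0.61). The last of these was at 0.30 without control replicate 3. Within pressure overload alone r with TNNI1 was 0.13 for PLA2G4A, -0.21 for KAT6B and -0.05 for DUSP1, against 0.79, 0.82 and 0.77 in controls, whereas SLC7A2 and ARID5B had 0.75 and 0.80 in pressure overload and 0.68 and 0.73 in controls. Whether these correlations differ between the groups was not tested. Neither MYL4, at position 89 of 515 with r = 0.24, nor MYH3, at position 496 with r = -0.59, was near TNNI1 in this order.

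**Figure D4:**
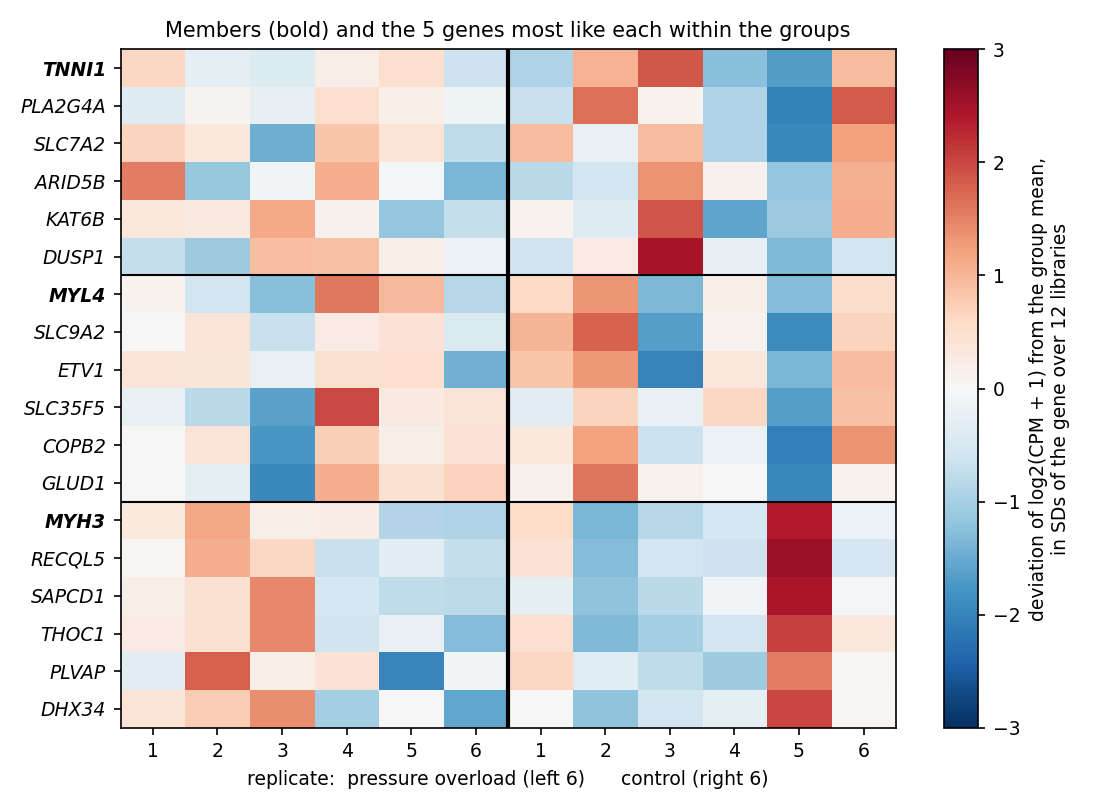
Deviation of log2(CPM + 1) from the group mean, in SDs of each gene, for the 3 genes (bold) and the 5 listed genes most like each, over the 6 pressure overload libraries (left) and the 6 controls (right). Control replicate 5 is high for MYH3 and its 5 genes and low for TNNI1 and MYL4; control replicate 3 is high for TNNI1 and low for MYL4, SLC9A2 and ETV1.

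Other sarcomere genes were taken from lists of isoforms and structural proteins. Of 64 genes of the thin filament, myosin heavy chains, myosin light chains, and thick filament with M-band and Z-disc, the 3 genes described here were the only ones in the authors' table: 1 of 19 thin filament genes, 1 of 9 heavy chains, 1 of 16 light chains and 0 of 20 others. Over all tested genes the share listed was 3.39%, but the 3 genes were there by choice, so these counts cannot be judged against it. The adult counterparts TNNI3, MYL3 and MYH7 and the atrial light chain MYL7 were not among the listed genes and were not analysed here, so no isoform ratio can be given, and a gene outside the list may still have differed. Of 16 fetal and hypertrophic heart genes 4 were listed. The 3 genes were among these by choice, and CKB was the only other. This count therefore cannot be judged against the share of all tested genes. CKB, a creatine kinase of brain type, averaged 29.5 ± 17.4 CPM in pressure overload and 13.4 ± 2.14 CPM in controls (SD, n = 6 each), opposite in direction to the 3 isoforms. Its groups did not overlap, the lowest pressure overload library being at 16.3 CPM and the highest control at 15.7 CPM, and it had an adjusted p of 0.975 in the authors' deposited table. Of 33 muscle transcription regulators, the actin-sensitive coactivator MRTFB was listed, at 31.4 ± 3.61 CPM in pressure overload and 45.0 ± 5.91 CPM in controls, with an adjusted p of 0.172 in the authors' deposited table.

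Markers of the cell types that the tissue could hold were counted in the same table, where 3.39% of all tested genes were listed and 2.46% were listed as lower. Of 17 atrial markers 1 was listed, MYL4 itself. Of 24 skeletal muscle markers and 12 ventricular markers none was listed, so the chamber of the tissue could not be checked. The skeletal muscle list was drawn up without TNNI1 and MYH3, whereas the atrial list included MYL4. The atrial and skeletal muscle counts therefore cannot be compared. Of 19 conduction system markers 2 were listed, ETV1 and RGS6, both lower in pressure overload; their summed level ranged from 21.3 to 35.2 CPM in pressure overload and from 34.9 to 114 CPM in controls. RGS6, a regulator of G protein signalling known in the mouse from pacemaker tissue, had the lowest log2 fold change of the table, at -2.87 in the authors' deposited table. ETV1 and RGS6 each had an adjusted p of 0.0367 in the authors' deposited table, and for both the groups overlapped. Within the groups, RGS6 had r = 0.55 with MYL4 and 0.015 with TNNI1. Of 7 endothelial markers KDR was listed, at 149.7 ± 35.5 CPM in pressure overload and 101 ± 27.5 CPM in controls, and no marker of smooth muscle, fibroblasts, epicardium, leukocytes or adipocytes was listed. The part of these markers in the differences of the 3 genes was not tested.

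On Sscrofa11.1 (RefSeq annotation), TNNI1 lies on chromosome 10 from 23788279 to 23800554 and MYL4 on chromosome 12 from 16774655 to 16792213. Neither gene overlaps another annotated gene. MYH3 had no entry in the RefSeq annotation used for these positions, so none is given for it. Of 41 other genes within 1 Mb of TNNI1, ZNF281 and LAD1 were listed, and of 33 within 1 Mb of MYL4 none was, against 3.39% of all tested genes.

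The mean level that the authors deposited beside each fold change did not match the 12 libraries for MYL4. In the authors' deposited table the mean log2 CPM of MYL4 was 5.56, which corresponds to 47.1 CPM, whereas the mean of the 12 libraries was 17.1 CPM and the highest single library, control replicate 2, was at 40.0 CPM. The deposited mean was 0.58 above the log2 of the mean CPM of the 12 libraries for TNNI1 and 0.61 above it for MYH3, against 1.46 for MYL4 and a median of 0.0993 over the 516 genes. For TNNI1 and MYH3 the deposited mean lay within the range of the libraries. It lay above the highest library for 13 of the 516 genes, CKB among them, at 6.37 against a log2 of 5.99 for its highest library. The group means in the authors' deposited table equalled those of the libraries, and the log2 of the ratio of group means, -2.91 for TNNI1, -1.41 for MYL4 and -1.21 for MYH3, was close to the deposited fold changes of -2.87, -1.40 and -1.17. The sources used here do not say which libraries entered the deposited mean or the deposited p-values.

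**Figure D5:**
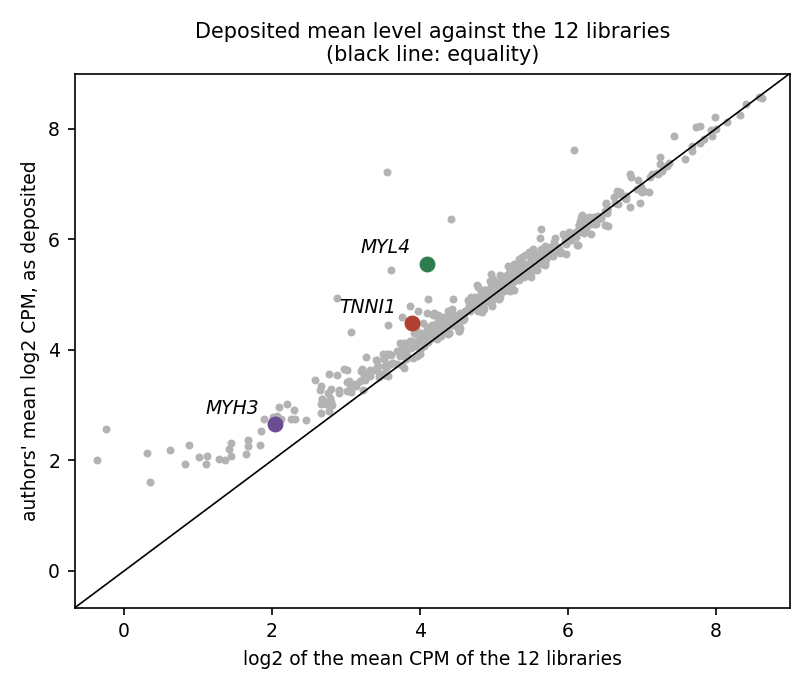
The authors' deposited mean log2 CPM against the log2 of the mean CPM of the 12 libraries for the listed genes (axes end at 9; the line marks equality). MYL4 lies 1.46 above the line, while TNNI1 and MYH3 lie 0.58 and 0.61 above it.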

How the data were processed

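The 12 poly-A libraries (6 of pressure overload, 6 of referent control) were grouped by their group label and matched to columns by sample number. Per the submitters' processing notes, the tools were FastQC, Trim Galore 0.4.5, STAR 2.7.2b, SAMtools 1.5 and featureCounts of Subread 1.5.3, with build Sscrofa11.1; the sources used here do not give the annotation, the strand setting or any rescaling of libraries. The authors deposited CPM per library and group mean, a log2 fold change and mean log2 CPM, a likelihood-ratio score, and unadjusted and adjusted p-values, per the file headers.

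Here, each library size was searched from 18 to 36 M reads for the value that brought CPM values of up to 5000 reads closest to whole reads; 94.6% to 96.8% of values were then whole within 0.02 reads. As not all were, no count model was fitted. Contrasts other than the chosen one were tested by limma-trend (limma 3.58.1, R 4.3.3) on log2(CPM + 1) for the 512 genes with at least 1 CPM in at least 6 libraries, adjusted over those genes. The code was checked on simulated data with effects larger than those of the 3 genes. That check does not show whether differences of their size could be found. Correlations used exact permutation (SciPy 1.17.1, Python 3.11.15).

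The 3 genes and the gene lists were chosen with earlier results of these data known. Named genes are the 3, every listed gene of the lists, and the 5 genes most like each; TNNI3, MYL3, MYH7 and MYL7 are named as counterparts, and ZNF281 and LAD1 as neighbours. Alternatives covered the pseudocount, the filter, rescaling, medians and each library left out.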

Additional observations from a re-analysis of the deposited data

Results flagged for a closer look

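The deposited mean log2 CPM of MYL4, a column that no comparison uses, was 5.56, above the log2 of the highest pressure overload library and of the highest control library (5.32); its source was not tested. No library of the 3 genes stood apart from its group by Dixon's criterion. The nearest was MYH3 in control replicate 5, whose gap to the next library was 0.604 of the group's range, just under the critical value for 6 libraries.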

How the results depend on the processing

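The log2 differences of TNNI1, MYL4 and MYH3 kept their sign and moved by less than 1 SD between replicates in all 60 alternative values computed. Leaving out each library in turn gave -2.54 to -1.97 for TNNI1, -1.52 to -1.18 for MYL4 and -1.001 to -0.73 for MYH3. Rescaling was computed on a table of mostly lower genes and raised the median difference of the table by 0.32 (median-of-ratios) and 0.21 (upper quartile), a shift that is built in. After median-of-ratios rescaling, r in pressure overload was 0.032 for TNNI1 with MYH3 and 0.12 for MYL4 with MYH3, of opposite sign to the values above, and neither passed before or after. The difference of MYH3 between replicates 4 to 6 and 1 to 3 was -0.031 with a pseudocount of 0.1 CPM and ranged from -0.18 to 0.10 when libraries were left out, all far from the threshold. The number of genes passing the interaction test ranged from 0 to 6 when libraries were left out, none of them among the 3 genes, whose adjusted p stayed at 0.145 or above. Leaving out the 2 libraries farthest from the median also turned the sign of r for MYL4 with MYH3 in pressure overload, which was 0.27 without them and -0.13 with them. Since libraries are balanced over the replicate numbers, a block for replicates 1 to 3 and 4 to 6 left each log2 difference as it was (-2.27, -1.33 and -0.90). Depth limits MYH3 most, with 42 to 299 reads per library, and the comparison of the sets of replicate numbers rests on 3 libraries per group in each set. Counting error is the only error that the read numbers describe.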
